A study of Homo sapiens with 4 samples.

Results

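The promoters of 7 housekeeping genes, ACTB, GAPDH, EEF1A1, RPLP0, TBP, B2M and GUSB, were examined for histone H3 acetylated at lysine 9 (H3K9ac). They were chosen by name, as genes that nearly every cell transcribes, and each was placed at its hg19 start. All H3K9ac regions that touched a window of 5 kb on each side of a start were taken. This gave 29 of the 39303 regions of the shRBBP4 library and 32 of the 26828 regions of the shNT library. Both come from passage 4 of T98G, a human cell line established from a glioblastoma, transduced with lentivirus carrying an shRNA against RBBP4 (shRBBP4) or a control shRNA (shNT). Each shRNA has 1 library made by chromatin immunoprecipitation and sequencing (ChIP-seq), so no difference below has a replicate check and no test between the libraries was possible. The input libraries and the level of RBBP4 were not analysed here.

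H3K9 acetylation is laid down on nucleosomes beside the starts of transcribed genes and is removed by histone deacetylases. RBBP4 binds histones as a subunit shared by several complexes that act on chromatin, deacetylases among them. Housekeeping genes serve basic functions in most tissues, such as the cytoskeleton, glycolysis and protein synthesis, and their promoters mostly lie in CpG-rich DNA that is kept free of nucleosomes at the start itself. Several of the 7 are used to normalise expression measurements. At such genes the mark is commonly found on both sides of the start in any cell type.

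All 7 genes had H3K9ac regions in both libraries. This count was set beside a 10 kb window centred on each of the 18106 clusters that the regions of both lists formed when joined across gaps of up to 1 kb. Regions of both libraries were found in 66.0% of those windows. Over the 7 genes the regions covered 12163 bp in shRBBP4 and 9531 bp in shNT, which is 17.4% and 13.6% of the windows. The ratio of 1.28 lay below the 1.51 of the whole lists, which cover 11.9 Mb in shRBBP4 and 7.89 Mb in shNT. Those lists include places with regions in 1 library alone, and over the windows with regions of both the ratio of summed covered length was 1.35. The number of regions at the 7 genes was 0.906 times as high in shRBBP4 as in shNT, against 1.23 times over the windows with regions of both libraries and 1.46 times in the whole lists. Depth is unknown for both libraries, so covered length does not measure how much acetylation there was.

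**Figure D1:**
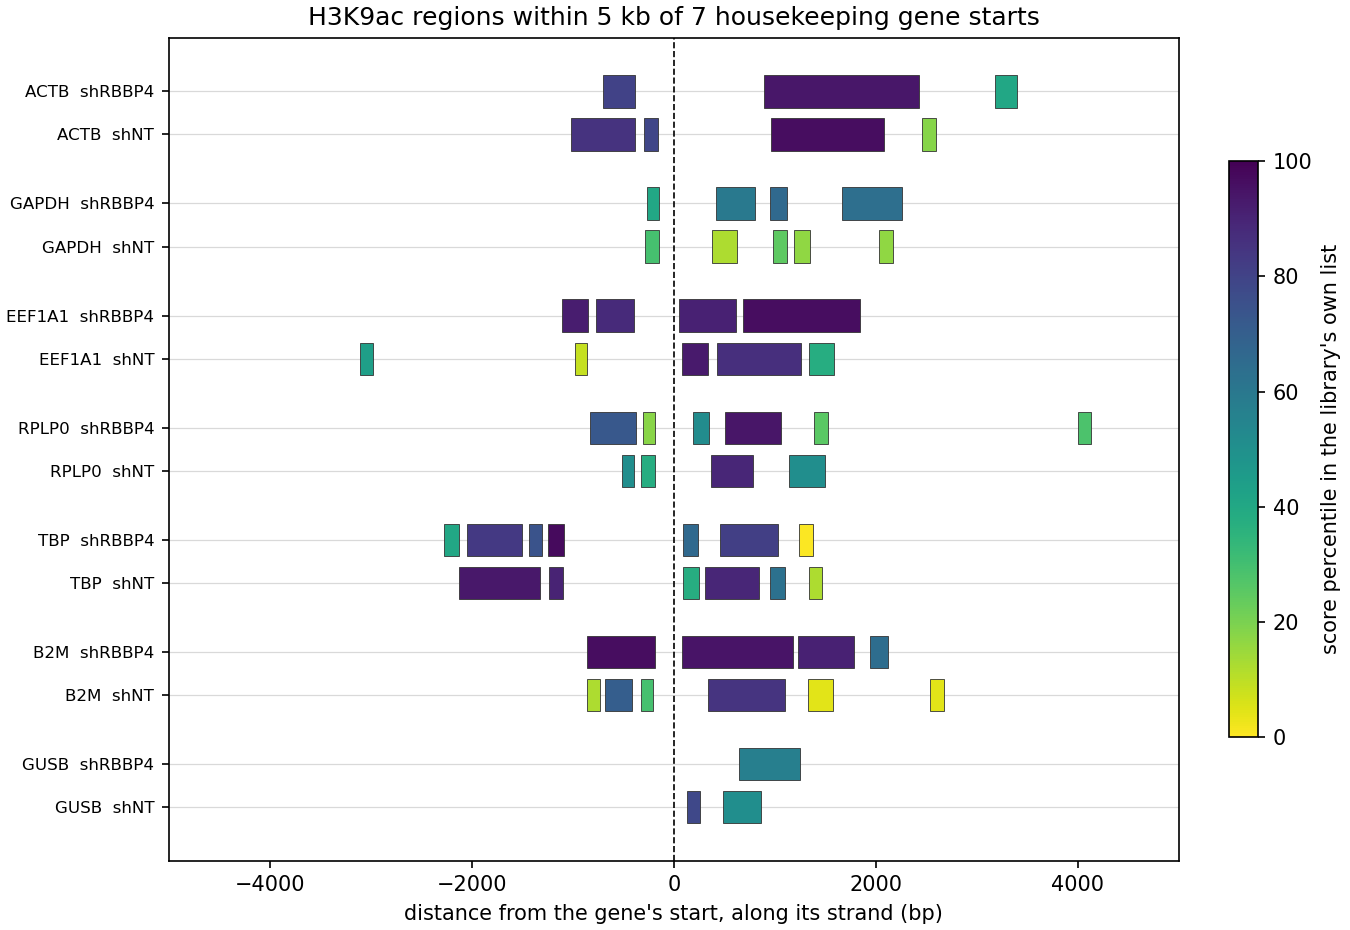
Regions within 5 kb of the 7 starts, drawn to scale along each gene's own strand, with shRBBP4 above shNT for each gene and the start at 0 bp. Colour gives the percentile of the region's score within its own list. No region of either library lies over a start, and GUSB is the gene without a region before its start.

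No start was covered by a region in either library, but regions cover only 17.4% of the windows in shRBBP4 and 13.6% in shNT. Most positions in the windows thus lie outside a region, and no share over further genes was taken. The mark lay on both sides of 6 of the 7 starts in each library, also without such a share. The exception was GUSB, with regions downstream of the start alone. The stretch without regions around the other starts was narrowest at B2M in shRBBP4 and at GAPDH in shNT, with B2M next, and widest at ACTB and TBP in both. In shRBBP4 it measured 267 bp at B2M, 371 bp at RPLP0, 445 bp at EEF1A1, 570 bp at GAPDH, 1180 bp at TBP and 1277 bp at ACTB. In shNT it measured 533 bp at GAPDH, 537 bp at B2M, 559 bp at RPLP0, 937 bp at EEF1A1, 1120 bp at ACTB and 1192 bp at TBP. It was narrower in shRBBP4 than in shNT at EEF1A1, RPLP0, TBP and B2M and wider at ACTB and GAPDH. Neighbouring regions up to 2 kb apart were separated by a median of 242 bp in the whole shRBBP4 list and 239 bp in the whole shNT list. A gap picked because it holds a given position tends to be longer than the median gap. These medians are therefore no baseline for the stretches over the starts. Starts differ between annotations, so distances of this size carry an error that the lists do not give.

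More of the mark lay downstream of the starts than upstream. In shRBBP4, 18 regions covered 8871 bp downstream and 11 regions covered 3292 bp upstream. In shNT, 20 regions covered 6656 bp downstream and 12 covered 2875 bp upstream. The ratio of shRBBP4 to shNT was 1.33 downstream and 1.145 upstream. The upstream ratio joins genes that differed in direction. Upstream, shRBBP4 covered fewer bases than shNT at ACTB (313 against 769 bp) and GAPDH (116 against 138 bp). It covered more at EEF1A1 (630 against 253 bp), RPLP0 (569 against 261 bp), TBP (984 against 937 bp) and B2M (680 against 517 bp). Downstream, it covered fewer at TBP alone (859 against 970 bp). All 7 genes had a shRBBP4 region between 800 and 1100 bp after the start, where the shRBBP4 count was highest. In no bin of 100 bp did shNT reach more than 6 of the 7 genes. Between 300 and 500 bp, shNT had 5 and 6 genes per bin and shRBBP4 had 3 and 4. No share over further genes was taken.

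**Figure D2:**
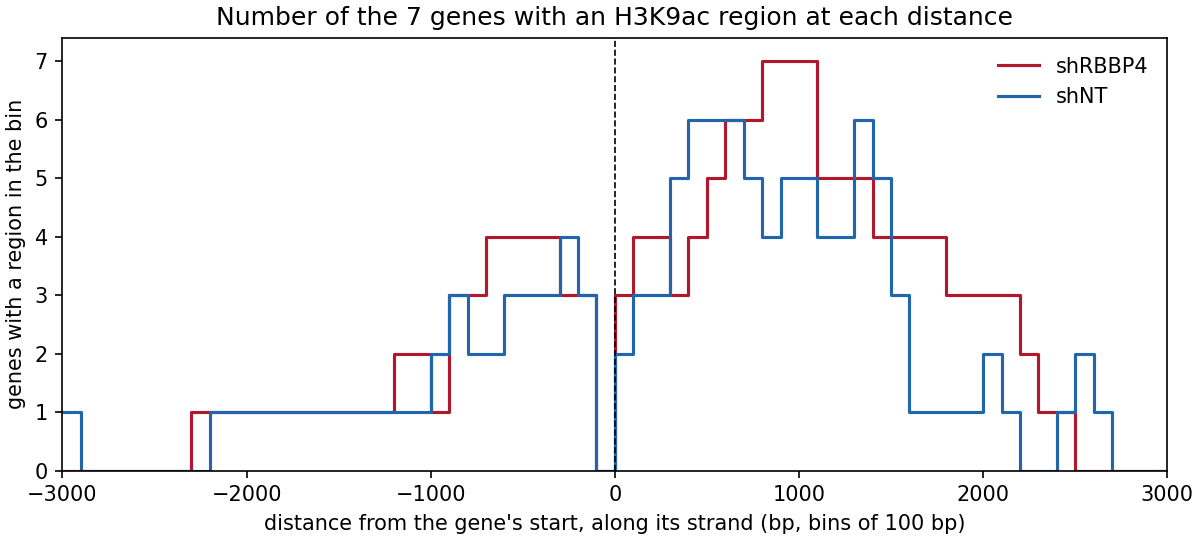
Number of the 7 genes that have a region in each bin of 100 bp, from 3 kb before to 3 kb after the start, for shRBBP4 and shNT. Both lines drop to 0 in the bin just before the start and reach their highest counts after it.

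The sequence just before the start was taken from RefSeq (GRCh38.p14) for 4 genes that span this range: RPLP0, whose regions come close on both sides, TBP and B2M, with the widest and the narrowest stretch without a region in either library (1180 and 267 bp), and GUSB, with no upstream region. Each sequence is the 250 bases up to the start, 5′ to 3′ along the gene. Capitals mark matches, on either strand, of 5 short elements. The TATA box was searched as TATAAA. The second element, the CCAAT box, is spelled by its name. The GC box was searched with the letters GGGCGG. For binding sites of ETS factors the core CCGGAA was used, and for sites of the factor YY1 the core AAGATGG was used. They are at chr12:120201112-120201361 (minus strand), chr6:170554119-170554368 (plus strand), chr15:44711267-44711516 (plus strand) and chr7:65982214-65982463 (minus strand). The build differs from that of the region lists, and these RefSeq starts were not compared with the hg19 starts. The bases were therefore not placed against the regions.
RPLP0: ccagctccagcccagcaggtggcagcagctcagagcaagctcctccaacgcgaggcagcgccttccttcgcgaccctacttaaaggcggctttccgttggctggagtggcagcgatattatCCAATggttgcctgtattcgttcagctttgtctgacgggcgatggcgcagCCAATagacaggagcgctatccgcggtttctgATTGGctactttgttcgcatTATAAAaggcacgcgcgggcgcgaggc
TBP: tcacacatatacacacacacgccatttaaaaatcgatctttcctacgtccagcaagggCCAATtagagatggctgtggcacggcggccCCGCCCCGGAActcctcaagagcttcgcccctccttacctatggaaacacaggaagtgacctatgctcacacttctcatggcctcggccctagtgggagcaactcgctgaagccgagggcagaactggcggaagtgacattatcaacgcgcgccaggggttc
B2M: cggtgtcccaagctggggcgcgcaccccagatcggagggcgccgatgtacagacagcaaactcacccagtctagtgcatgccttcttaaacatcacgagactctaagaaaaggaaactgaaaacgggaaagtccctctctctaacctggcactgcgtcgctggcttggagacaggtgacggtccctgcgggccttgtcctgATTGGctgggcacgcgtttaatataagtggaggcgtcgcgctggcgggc
GUSB: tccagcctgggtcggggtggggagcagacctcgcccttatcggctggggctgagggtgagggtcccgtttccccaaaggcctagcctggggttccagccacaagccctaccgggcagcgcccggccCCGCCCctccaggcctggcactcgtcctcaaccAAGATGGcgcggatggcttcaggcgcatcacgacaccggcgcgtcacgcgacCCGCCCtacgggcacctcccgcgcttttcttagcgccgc

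The 4 promoters differ in the elements they hold. RPLP0 has a TATA box from -27 to -22 relative to its RefSeq start, and 3 CCAAT boxes. The TATA box was found in 10.7% of the 35114 upstream sequences of the same length in the table. TBP and B2M have 1 CCAAT box each, which 32.0% of all upstream sequences hold. TBP also has a GC box (42.6% of all) that shares its last base with an ETS core (14.5% of all). GUSB has 2 GC boxes and a YY1 core (3.70% of all). EEF1A1, not printed, has 1 GC box and no other match. The CArG box, the site of serum response factor, was also searched and was found in none of the 6 upstream sequences held here and in 1.16% of all. ACTB had no sequence in the table. The table's GAPDH sequence is that of a start inside the gene, so its sequence was not used further. In the remaining 5 genes the upstream 250 bases held between 15 and 24 CG dinucleotides, against a median of 11 over the table. A match describes the letters and does not show that a factor binds.

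ACTB encodes beta-actin, a main component of the cytoskeleton. Its highest-scoring region, inside the gene, was also its widest in both libraries, and in shNT it ranked above the best region of every other gene of the 7. It ran from chromosome 7 position 5567808 to 5569341 in shRBBP4 (1534 bp, score percentile 93.9 in its own list) and from 5568150 to 5569274 in shNT (1125 bp, percentile 96.9). Upstream, shRBBP4 had 1 region of 313 bp at percentile 80.3, and shNT had 2 regions of 632 and 137 bp at percentiles 85.5 and 79.2. The mark thus covered more bases downstream in shRBBP4 (1757 bp, against 1260 bp in shNT) and fewer upstream (313 bp, against 769 bp in shNT). In sum the gene was covered over 2070 bp in shRBBP4 and 2029 bp in shNT. The ratio was 1.02 over the whole window, and it was 0.785 within 2 kb of the start and 0.534 within 1 kb.

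GAPDH, a glycolytic enzyme, had the lowest-ranked best region of the 7 genes in shNT. Its 5 shNT regions stood at percentiles between 12.2 and 29.4, and the 4 shRBBP4 regions stood between 40.5 and 66.3. Of these, 4 regions in each library overlapped one of the other library. The upstream one ended at the same base, -152 relative to the start, and ran from chromosome 12 position 6643318 in shRBBP4 and from 6643296 in shNT to 6643433. Downstream, the widest region measured 593 bp in shRBBP4, from 6645247 to 6645839, where shNT had a region of 138 bp, from 6645614 to 6645751. Covered length came to 1261 bp in shRBBP4 and 814 bp in shNT, a ratio of 1.55. GAPDH has 65 pseudogenes under its own name in RefSeq's gene table, EEF1A1 has 50, GUSB 19, ACTB 14, RPLP0 12, and TBP and B2M none. How reads that match several such copies were treated is not given in the sources used here, and their part in these percentiles was not tested.

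EEF1A1 encodes the elongation factor that brings aminoacyl-tRNA to the ribosome. Its body was strongly marked in both libraries, with the best region at percentile 96.8 in shRBBP4 (chromosome 6, 74228917 to 74230068, 1152 bp) and 93.3 in shNT (74230415 to 74230676, 262 bp). Upstream of the start, the percentiles of the regions differed widely between the libraries. There, shRBBP4 had regions of 373 and 257 bp at percentiles 88.2 and 92.1, and shNT had regions of 123 and 130 bp at percentiles 8.69 and 44.0. The weaker of these shNT regions overlapped the stronger shRBBP4 region. Covered length was 2347 bp in shRBBP4 and 1591 bp in shNT, a ratio of 1.48. Upstream alone it was 630 bp against 253 bp, and downstream it was 1717 bp against 1338 bp.

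RPLP0 encodes a protein of the large ribosomal subunit's stalk. The strongest region lay downstream of the start in both libraries, from chromosome 12 position 120637980 to 120638529 at percentile 94.2 in shRBBP4 and from 120638253 to 120638666 at percentile 89.3 in shNT. Closest to the start on the upstream side was 1 narrow region in each library, 116 bp wide at percentile 17.7 in shRBBP4 and 138 bp wide at percentile 37.7 in shNT. Beyond them lay a region of 453 bp in shRBBP4 at percentile 73.0 and one of 123 bp in shNT at percentile 51.2. In all, 1542 bp were covered in shRBBP4 and 1024 bp in shNT, a ratio of 1.51. That ratio just passed the limit of 1.5 used below, and in lists of equal length it was 1.13.

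TBP encodes the TATA-binding protein, which helps to place RNA polymerase at promoters. Its upstream neighbour in RefSeq's gene table is PSMB1, a proteasome subunit gene, and much of the mark in the window lay on that side. In shRBBP4, 4 regions upstream covered 984 bp, and 3 downstream covered 859 bp. In shNT, 2 regions upstream covered 937 bp, and 4 downstream covered 970 bp. The highest-scoring region was upstream in both, from chromosome 6 position 170862172 to 170862331 in shRBBP4 (percentile 97.4) and from 170861292 to 170862094 in shNT (percentile 93.6). Downstream of the start, the best region stood at percentile 81.5 in shRBBP4 and 89.3 in shNT, so the order of the libraries depended on which side was read. In total 1843 bp were covered in shRBBP4 and 1907 bp in shNT, so TBP was the gene with less covered in shRBBP4 than in shNT, at a ratio of 0.966.

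B2M encodes beta-2-microglobulin, the light chain of class I antigen-presenting molecules. Its neighbour on the upstream side is PATL2. The gene had the greatest covered length of the 7 in shRBBP4, 2502 bp, against 1671 bp in shNT, a ratio of 1.497. Upstream, a single shRBBP4 region of 680 bp at percentile 96.6 (chromosome 15, 45002823 to 45003502) lay over 3 shNT regions of 123, 271 and 123 bp at percentiles 12.2, 70.3 and 29.4. Downstream, the shRBBP4 regions began 85 bp and the shNT regions 335 bp after the start. The best downstream region stood at percentile 94.6 in shRBBP4 (1094 bp) and 84.8 in shNT (763 bp). Upstream, the same stretch of DNA was thus marked in both, in 1 long piece in shRBBP4 and in 3 short ones in shNT.

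GUSB encodes beta-glucuronidase, a lysosomal enzyme, and had the shortest covered length of the 7 genes in both libraries. Its best region ranked lowest of the 7 in shRBBP4 but above that of GAPDH in shNT. In shRBBP4 its single region ran from chromosome 7 position 65446058 to 65446655 (598 bp, percentile 57.1). In shNT there were 2 regions, from 65446443 to 65446814 (372 bp, percentile 51.2) and from 65447047 to 65447169 (123 bp, percentile 78.2). The region nearer to the start, 132 bp after it, had no shRBBP4 region over it. The gene was covered over 598 bp in shRBBP4, against 495 bp in shNT, a ratio of 1.21, and within 1 kb it was 0.717.

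**Figure D3:**
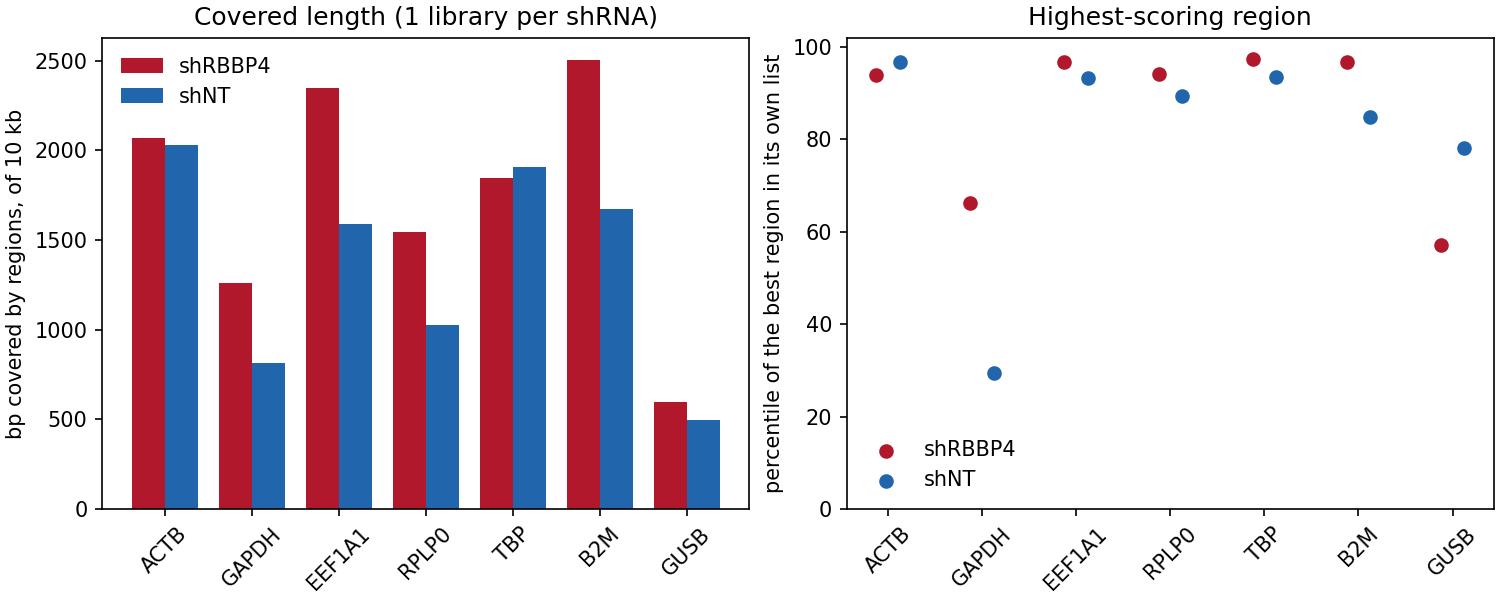
Left, base pairs covered by regions within 5 kb of each start. Right, percentile of the highest-scoring region in its own list. Each bar or point is 1 library, shRBBP4 in red and shNT in blue, with no error because there are no replicates. GAPDH and GUSB stand apart on the right, with shRBBP4 above shNT at GAPDH and below it at GUSB.

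Most of the 7 genes had a long covered length, while the ratio of the libraries lay in the middle range of the windows on shared clusters. ACTB, EEF1A1, RPLP0, TBP and B2M had at least as much covered as 80.2% to 95.1% of the windows in shRBBP4 and as 72.6% to 95.0% in shNT. For GAPDH the values were 69.4% in shRBBP4 and 62.8% in shNT, and for GUSB 31.2% in shRBBP4 and 41.6% in shNT. The ratio of shRBBP4 to shNT was above 1 at 6 genes and below 1 at TBP, with a median of 1.48. Over the 10454 windows centred on clusters with regions of both libraries, the ratio was above 1 in 73.2%. The median ratio over those windows was 1.36 (quartiles 0.976 and 2.04). At least 1.5-fold more was covered in shRBBP4 at 2 genes, GAPDH and RPLP0, and this held for 42.8% of those windows. EEF1A1 and B2M were just below this limit, at 1.475 and 1.497. Within 2 kb of the starts the count was again 2, but EEF1A1 (1.61) and B2M (1.56) passed and GAPDH (1.49) and RPLP0 (1.38) did not. No gene had at least 1.5-fold less covered in shRBBP4, against 8.65% of the windows. All 7 ratios lay between percentiles 24.3 (TBP) and 59.7 (GAPDH) of the windows. In windows whose mean covered length was in the range of the 7 genes, 6356 in all, the median ratio was 1.36 as well.

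**Figure D4:**
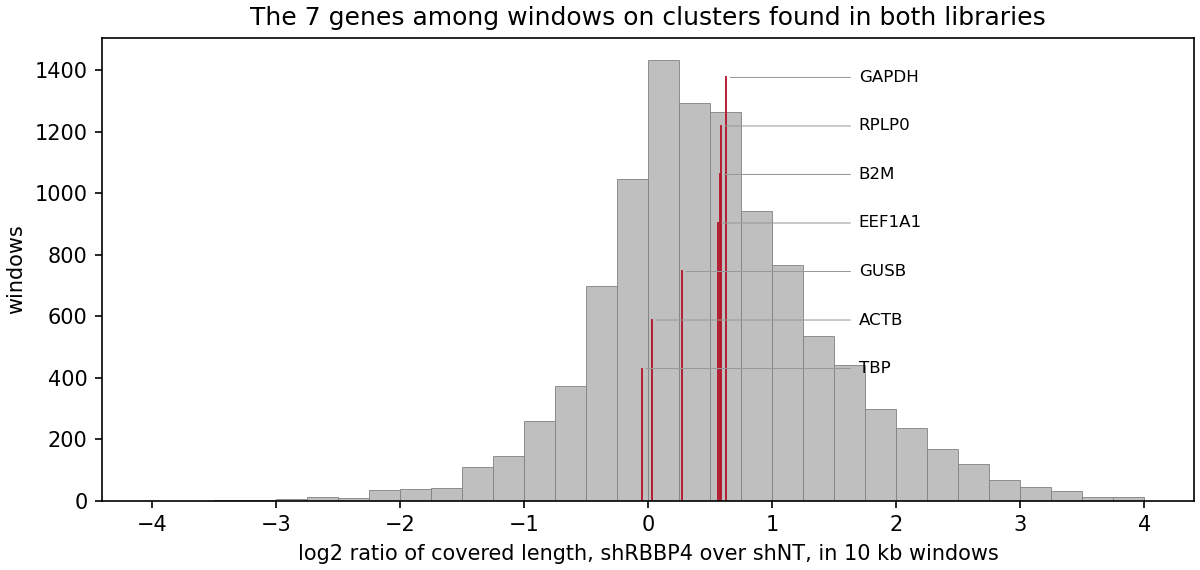
Histogram of the log2 ratio of covered length, shRBBP4 over shNT, in 10454 windows of 10 kb on clusters found in both libraries, with the 7 genes as red lines whose heights only separate their names. The end bars also hold more extreme values. The 7 genes lie between -0.05 and 0.63, in the middle of the distribution.

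The strongest region of each gene ranked high in both libraries at 5 of the 7 genes. ACTB, EEF1A1, RPLP0, TBP and B2M had their best region between percentiles 93.9 and 97.4 in shRBBP4 and between 84.8 and 96.9 in shNT. For TBP that region lay upstream in both libraries, on the side of PSMB1. Downstream of the TBP start the best region stood at 81.5 in shRBBP4 and 89.3 in shNT. The best regions of GAPDH and GUSB ranked lower, at 66.3 and 57.1 in shRBBP4 and 29.4 and 78.2 in shNT. In the windows on shared clusters the best region had a median percentile of 80.3 in shRBBP4 and 70.3 in shNT, so both genes were below the median in shRBBP4 and GAPDH was also below it in shNT. Across the 7 genes, 9 of 29 shRBBP4 regions and 4 of 32 shNT regions stood above percentile 90, and 7 and 16 stood below percentile 50. Percentiles are ranks within a list, so about 50% of each whole list stands below percentile 50 by construction. The share above percentile 90 is fixed in the same way. The shNT counts were thus at or close to the shares of the whole list. In shRBBP4 more regions than that stood above percentile 90 and fewer stood below percentile 50.

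The rank of the best region was higher in shRBBP4 at 5 genes and lower at ACTB and GUSB. For these counts no share over the windows was taken. The difference, shRBBP4 minus shNT, was -2.996 points at ACTB, 3.51 at EEF1A1, 4.89 at RPLP0, 3.76 at TBP and 11.8 at B2M. GAPDH and GUSB differed most and in opposite directions, by 36.95 and -21.1 points. GAPDH was the 1 gene at least 20 points higher in shRBBP4, as were 27.0% of the windows. GUSB was the 1 gene at least 20 points lower, as were 9.39%. The median of the 7 differences was 3.76 points, against 4.56 over the windows. Ranked by width instead of score, 3 of the 7 differences changed sign, to 11.3 points at GUSB, -6.87 at TBP and 0.796 at ACTB, and B2M stood at 3.27. In lists of equal length, the difference was 21.3 points at GAPDH and -41.1 at GUSB, and at TBP it was -7.87 within 1 kb.

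Regions at the 7 genes were mostly found again in the other library. Of the shRBBP4 regions there, 24 of 29 (82.8%) overlapped a shNT region, against 50.04% of the whole shRBBP4 list. Of the shNT regions, 26 of 32 (81.3%) overlapped a shRBBP4 region, against 77.0% of the whole list. By bases, 59.5% of the shRBBP4 and 75.9% of the shNT covered length at the 7 genes was covered in both, against 46.1% and 69.7% in the whole lists. The whole lists also hold places where shRBBP4 alone or shNT alone has regions, while all 7 genes have regions of both libraries. Such places lower the shares of the whole lists, which are thus no matched baseline for the 7 genes. No share over the windows with regions of both libraries was taken, so whether overlap was unusually high at these genes was not tested. At TBP all 7 shRBBP4 and all 6 shNT regions overlapped. The shared share of bases was lowest at GUSB, where 35.6% of the shRBBP4 and 43.0% of the shNT length was shared.

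Joined across gaps, the regions at the 7 genes spanned nearly the same length in both libraries. Such spans count bases without a region, and the regions themselves covered 12163 bp in shRBBP4 and 9531 bp in shNT. With gaps of up to 1 kb filled in, regions at the 7 genes spanned 16823 bp in shRBBP4 and 16312 bp in shNT, a ratio of 1.03, while the windows on shared clusters had a ratio of 1.35. The span was 2822 and 2493 bp at ACTB in shRBBP4 and shNT, 2522 and 2456 bp at GAPDH, 2950 and 2693 bp at EEF1A1, and 2475 and 2404 bp at TBP. RPLP0 had the greatest ratio, 1.23, and GUSB (0.823) and B2M (0.844) were below 1. Regions were longer in shRBBP4, with a mean of 419 bp per region against 298 bp in shNT, and the same means over the windows were 325 and 297 bp. Fewer regions but more covered length in shRBBP4 was seen at 5 genes (ACTB, GAPDH, EEF1A1, B2M and GUSB). This held for 9.78% of all the windows and for 12.9% of those with 2 to 6 shNT regions, the range of the 7 genes. The count, chosen after the values were seen, was 2 within 2 kb of the starts and 1 among the higher-scoring 50% of each list.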

How the data were processed

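H3K9ac ChIP-seq region lists of 2 libraries were used, 1 per shRNA. The score of each region is the authors' own value, its scale is not given in the sources used here, and it was ranked only within its list. Each library has its own list. The track lines name macs2 and PE, per the file headers, while bcl2fastq 2.15.0, BWA, Picard, SICER, GRCh37 and hg19 are listed with no role, per the submitters' processing notes. Neither the threshold nor any use of the input is stated there, and depth is unknown.

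The 7 genes and the lists were chosen with earlier results of these data known. The 7 genes, all named, were placed at the hg19 starts of the selection rule. No complete hg19 annotation was used, so no further reference genes were placed. Starts were counted from 1, regions touching a window by 1 bp were counted, and covered bases were clipped to it. The limits were a ratio of 1.5 and, chosen after seeing the data, a difference of 20 percentile points. Percentiles give tied scores their mean rank. The interval functions were tested on simulated data in 500 windows against a base-by-base count and gave equal lengths. RefSeq tables (GRCh38.p14) gave sequences for 6 of 7 genes, neighbours and pseudogene names. Gene strands were taken from textbook knowledge, and the table gave the same for those 6. Python 3.11.15, numpy 2.4.6, pandas 2.3.3 and matplotlib 3.10.9 were used.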

Additional observations from a re-analysis of the deposited data

How the results depend on the processing

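No paired analysis was possible because each shRNA has 1 library. All 7 genes kept regions in both libraries within 2 kb and 1 kb of the start and in lists of equal length. In the higher-scoring 50% of each list 6 did, since GAPDH had none in shNT. In that setting 22 of 29 shRBBP4 and 16 of 32 shNT regions were left at the 7 genes, fewer by construction. Within 1 kb, 18 shRBBP4 and 21 shNT regions were left. The ratio of summed covered length was 1.23 within 2 kb, 1.19 within 1 kb, 1.22 in lists of equal length, 1.59 in the higher-scoring 50% and 1.03 for joined spans, and between 1.23 and 1.35 with 1 gene left out (B2M and TBP).

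The 2 genes at least 1.5-fold higher, GAPDH and RPLP0, gave way to EEF1A1 and B2M within 2 kb. In the higher-scoring 50% the 2 genes counted were also EEF1A1 and B2M (2.147 and 2.42), and RPLP0 was at 1.31. GAPDH kept regions in shRBBP4 but none in shNT there, so it had no ratio and could not be counted. The count became 1 within 1 kb (RPLP0), 1 in lists of equal length (GAPDH) and 0 for joined spans, and the count was 4 at a lower and 0 at a higher limit. ACTB was the 1 gene at least 1.5-fold lower within 1 kb. By width, TBP and ACTB changed sign and GUSB moved to 11.3 points higher in shRBBP4, so 0 genes were at least 20 points lower. The count of genes with fewer regions but more covered length was 2 within 2 kb, 1 within 1 kb, 1 in the higher-scoring 50% and 6 in lists of equal length. Their cause was not tested. Unknown depth limits all values.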

Other observations

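Some edges fell on the same base in both libraries. The region upstream of GAPDH ended at -152 bp and the first region downstream of TBP began 91 bp after the start in shRBBP4 and in shNT. The narrowest regions at the 7 genes measured 116 bp in shRBBP4 and 123 bp in shNT, which are also the lowest widths in the whole lists.

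Scores took few values. The shRBBP4 list holds 2104 distinct scores and the shNT list 1301, and 97.7% and 98.2% of regions share their score with another. In shRBBP4, 1 region each at ACTB, GAPDH and TBP had a score of 7.24 (percentile 40.5), and in shNT, 1 region each at EEF1A1, RPLP0 and TBP had a score of 6.40 (percentile 37.7). The region farthest from its start lay at RPLP0 in shRBBP4, from 4001 to 4125 bp, and at EEF1A1 in shNT, from -3112 to -2983 bp.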
